A study of Mus musculus with 10 samples.

Results

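The elastic fibre genes described here are 10 genes: Eln, Fbn1, Fbn2, Fbln5, Efemp2, Efemp1, Fbln1, Fbln2, Lox and Loxl1. They were taken by name from the gene column of both RNA tables of the series, with the transcript of the highest mean level where a name had several, and all 10 were found among 22835 gene names. Preadipocytes had been isolated from interscapular brown fat of newborn mice, immortalised with SV40 large T antigen and taken through adipogenesis in culture. The study asked how H3.3K4M, a histone H3.3 in which a lysine is changed to methionine, and the H3K4 methyltransferases MLL3 and MLL4 act in the making of fat cells. RNA was sequenced from 4 groups of 1 library each. The LSL-K4M 4OHT and LSL-K4M mock groups carry LSL-K4M and CreER, where 4-hydroxytamoxifen (4OHT) activates the CreER recombinase and, by the design in the name, removes a lox-stop-lox cassette and switches on H3.3K4M. The Mll3/4SET 4OHT and Mll3/4SET mock groups carry floxed Mll3, a floxed SET domain of Mll4 (the catalytic domain) and CreER, and 4OHT deletes the floxed parts. Mock cultures carry the same alleles without 4OHT, and cells without these alleles that received 4OHT were not analysed here. All 4 libraries are labelled as mature adipocytes of day 7, but each 4OHT library has a title that gives day 0, while the headings of both deposited tables give day 7. The values are therefore taken as day 7, with the title left as a doubt.

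An elastic fibre has a core of crosslinked elastin, the product of Eln, laid on a scaffold of microfibrils built from fibrillins. Fibulins carry soluble elastin to the microfibrils and bring it to the lysyl oxidases, copper enzymes that oxidise lysine side chains so that elastin and collagen chains become crosslinked. Fibrillin microfibrils also hold latent TGF-beta in the matrix, and in fat the matrix is made by stromal cells and preadipocytes as well as adipocytes.

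Reads summed over 1 transcript per gene ran between 15209607 and 16719658 per library. Levels are RPKM, the reads of a transcript scaled to its length and to the library. With 1 library per group there is no estimate of spread between cultures of a line, so 4OHT could not be tested within a line, no p-value is given, and each fold below compares 2 libraries. Intervals in brackets are exact 95% binomial intervals of the reads and cover counting error alone, not the spread between cultures. They take reads as independent. PCR copies of a molecule are not marked by identifiers, so the intervals can be too narrow even for counting error. A gene is called higher or lower when log2(RPKM + 1) differs by 2-fold or more, a scale that shrinks the differences of weakly expressed genes. Genes were measured if the higher library had at least 1 RPKM. On this scale 5.26% of 12179 were called higher and 6.19% lower in LSL-K4M, and 5.18% of 12184 were called higher and 7.41% lower in Mll3/4SET. Under median-ratio scaling the median of all genes moved to -0.02 in LSL-K4M, against 0.10 as deposited, and to 0.00 in Mll3/4SET, against 0.12 as deposited. The share of lower calls was then 66.9%, against 54.1% as deposited, in LSL-K4M and 68.8%, against 58.9% as deposited, in the Mll3/4SET line. Of the targeted genes, Mll3 was at 4.09 RPKM in LSL-K4M 4OHT and 5.17 RPKM in LSL-K4M mock, and at 5.46 RPKM in Mll3/4SET 4OHT and 7.48 RPKM in Mll3/4SET mock. The gene for MLL4, listed as Mll2, was at 10.2 RPKM in LSL-K4M 4OHT and 9.31 RPKM in LSL-K4M mock, and at 12.2 RPKM in Mll3/4SET 4OHT and 13.6 RPKM in Mll3/4SET mock. Reads counted along the full transcript cannot tell if a floxed part is missing, and the H3.3K4M transgene was not analysed here, so these values do not check the genotypes. The label of mature adipocytes was borne out least in Mll3/4SET 4OHT, where the adipocyte genes Fabp4 and Adipoq were at 24.3 and 3.22 RPKM, against 5119.1 and 167.1 RPKM in Mll3/4SET mock. Ucp1, the uncoupling protein that defines brown fat, was low in every library, at 0.0793 RPKM in LSL-K4M 4OHT and 3.58 RPKM in LSL-K4M mock, and at 0.0561 RPKM in Mll3/4SET 4OHT and 1.45 RPKM in Mll3/4SET mock.

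In LSL-K4M, 6 of the 10 were called higher (Eln, Fbn1, Fbn2, Fbln5, Fbln2 and Lox) and 0 lower, where 5.26% of all measured genes were called higher. In Mll3/4SET, 3 of the 10 were called higher (Fbln5, Fbln2 and Loxl1) and 0 lower, where 5.18% of all measured genes were called higher. The median log2 difference of the 10 genes was 1.48 in LSL-K4M, beside 0.10 over all measured genes, and 0.77 in Mll3/4SET, beside 0.12. Relative to the median of all genes these are 1.38 and 0.65 as deposited, and 1.36 and 0.63 under median-ratio scaling. Each of the 10 passed the minimum of 1 RPKM in all 4 libraries, so none was left out of these counts. Summed over the 10 genes the level was 2156.5 RPKM in LSL-K4M 4OHT and 853.1 RPKM in LSL-K4M mock, 2.53-fold higher, and 1749.0 RPKM in Mll3/4SET 4OHT and 973.5 RPKM in Mll3/4SET mock, 1.80-fold higher. The genes took 1.39% of the reads in LSL-K4M 4OHT and 0.519% in LSL-K4M mock, and 1.19% in Mll3/4SET 4OHT and 0.666% in Mll3/4SET mock.

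**Figure D1:**
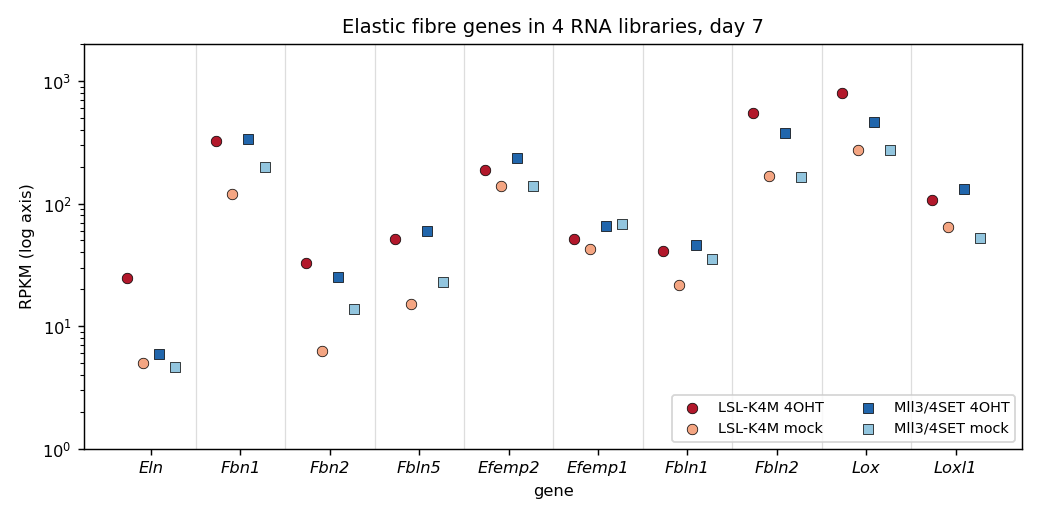
RPKM (log axis) of the 10 elastic fibre genes in the 4 libraries, 1 point per library and gene, with no error bars since each group has 1 library. Lox is the highest point of the 10 genes in each library, at 791.3 RPKM in LSL-K4M 4OHT, and the Eln point of LSL-K4M 4OHT, at 24.5 RPKM, stands above the other 3 Eln points.

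Elastin itself was high in 1 library of the 4. Eln was at 24.5 RPKM in LSL-K4M 4OHT and 5.01 RPKM in LSL-K4M mock (2132 and 409 reads), and at 5.94 RPKM in Mll3/4SET 4OHT and 4.61 RPKM in Mll3/4SET mock (487 and 388 reads). The other 3 libraries lay close together, between 4.61 and 5.94 RPKM. The ratio of 4OHT to mock was 4.89 (4.39 to 5.45) in LSL-K4M and 1.29 (1.13 to 1.48) in Mll3/4SET, and these 2 intervals did not overlap. The log2 difference of Eln exceeded that of 99.7% of measured genes in LSL-K4M and of 66.9% in Mll3/4SET. Whether the effect differs between the lines beyond the spread of cultures was not tested, since each line has 1 pair of libraries.

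The fibrillins form the microfibril scaffold. Fbn1, the main fibrillin of adult tissue, was at 326.4 RPKM in LSL-K4M 4OHT and 120.5 RPKM in LSL-K4M mock, and at 338.9 RPKM in Mll3/4SET 4OHT and 198.9 RPKM in Mll3/4SET mock. The 4OHT libraries were alike, while the mock libraries differed from each other. The ratio was 2.71 (2.67 to 2.75) in LSL-K4M and 1.70 (1.68 to 1.72) in Mll3/4SET. Fbn2, a fibrillin known mainly from developing tissue, was at 32.9 RPKM in LSL-K4M 4OHT and 6.27 RPKM in LSL-K4M mock, and at 25.4 RPKM in Mll3/4SET 4OHT and 13.9 RPKM in Mll3/4SET mock. Its ratio was 5.25 (4.96 to 5.55) in LSL-K4M, the highest of the 10 genes, and 1.82 (1.75 to 1.90) in Mll3/4SET. Fbn1 exceeded Fbn2 per length in every library, 9.93-fold in LSL-K4M 4OHT, 19.2-fold in LSL-K4M mock, 13.4-fold in Mll3/4SET 4OHT and 14.3-fold in Mll3/4SET mock.

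**Figure D2:**
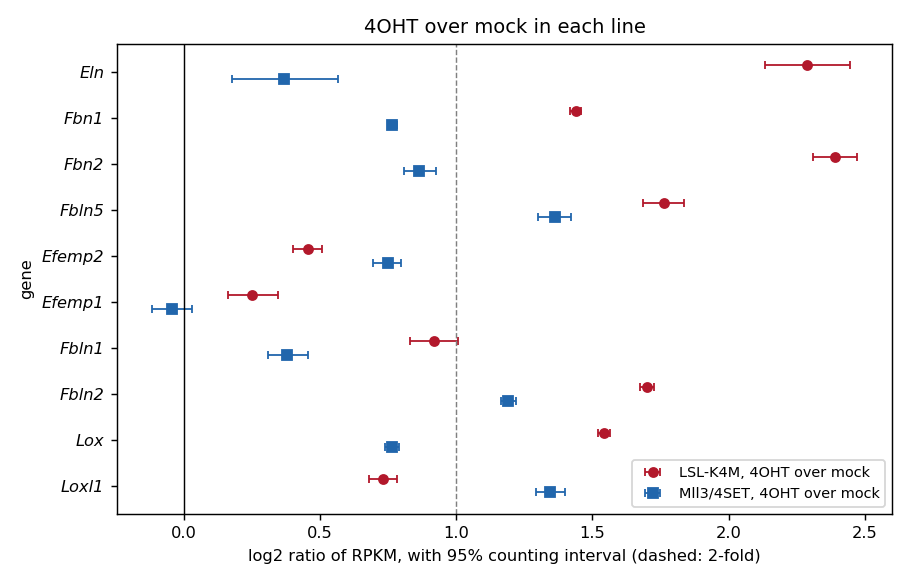
Log2 of the RPKM ratio of 4OHT over mock for each gene, in LSL-K4M (circles) and Mll3/4SET (squares), with 95% intervals that cover counting error only; the dashed line marks 2-fold. Eln and Fbn2 lie farthest right in LSL-K4M, at ratios of 4.89 and 5.25, while Efemp1 lies near 0 in both lines.

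The 3 short fibulins had unequal differences. Fbln5, whose product (fibulin-5) tethers elastin and lysyl oxidase-like enzymes to microfibrils and is needed for elastic fibres in mice, was at 51.0 RPKM in LSL-K4M 4OHT and 15.1 RPKM in LSL-K4M mock, and at 59.3 RPKM in Mll3/4SET 4OHT and 23.1 RPKM in Mll3/4SET mock. Each 4OHT library was above both mock libraries, and the ratio was 3.39 (3.22 to 3.57) in LSL-K4M and 2.57 (2.46 to 2.68) in Mll3/4SET. Efemp2, which encodes fibulin-4, a protein that binds lysyl oxidase and is needed for elastin crosslinking in mice, was at 188.9 RPKM in LSL-K4M 4OHT and 138.4 RPKM in LSL-K4M mock, and at 233.6 RPKM in Mll3/4SET 4OHT and 139.4 RPKM in Mll3/4SET mock. The mock libraries of Efemp2 were alike, and its ratios of 1.37 (1.32 to 1.42) in LSL-K4M and 1.68 (1.62 to 1.74) in Mll3/4SET stayed under the 2-fold limit. Efemp1, which encodes fibulin-3, was at 51.2 RPKM in LSL-K4M 4OHT and 42.9 RPKM in LSL-K4M mock, and at 65.6 RPKM in Mll3/4SET 4OHT and 67.6 RPKM in Mll3/4SET mock. It had the smallest differences of the 10 genes, with ratios of 1.19 (1.12 to 1.27) in LSL-K4M and 0.971 (0.922 to 1.02) in Mll3/4SET.

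The long fibulins bind fibrillin, elastin and basement membrane proteins. Fbln2, which encodes fibulin-2, was at 542.4 RPKM in LSL-K4M 4OHT and 167.0 RPKM in LSL-K4M mock, and at 376.4 RPKM in Mll3/4SET 4OHT and 164.8 RPKM in Mll3/4SET mock. The 2 mock libraries differed by less than counting error could separate (ratio of Mll3/4SET mock to LSL-K4M mock 0.987, interval 0.965 to 1.01). With 4OHT the ratio was 3.25 (3.19 to 3.31) in LSL-K4M and 2.28 (2.24 to 2.33) in Mll3/4SET. The other transcript listed for Fbln2, which shares most of its reads, gave the same ratios, 3.25 in LSL-K4M and 2.28 in Mll3/4SET. Fbln1, which encodes fibulin-1, was at 40.8 RPKM in LSL-K4M 4OHT and 21.6 RPKM in LSL-K4M mock, and at 46.3 RPKM in Mll3/4SET 4OHT and 35.6 RPKM in Mll3/4SET mock. Its ratios of 1.89 (1.78 to 2.01) in LSL-K4M and 1.30 (1.24 to 1.37) in Mll3/4SET stayed under the limit.

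Each of the 2 lysyl oxidases passed the 2-fold limit in 1 line, Lox in LSL-K4M and Loxl1 in Mll3/4SET. Lox, the founding enzyme of the family, was at 791.3 RPKM in LSL-K4M 4OHT and 271.8 RPKM in LSL-K4M mock, and at 465.4 RPKM in Mll3/4SET 4OHT and 273.5 RPKM in Mll3/4SET mock. Its mock levels were alike, and its ratio was 2.91 (2.87 to 2.96) in LSL-K4M and 1.70 (1.67 to 1.73) in Mll3/4SET. By level Lox ranked 15 among all gene names in LSL-K4M 4OHT and 86 in LSL-K4M mock, and 34 in Mll3/4SET 4OHT and 79 in Mll3/4SET mock. Loxl1, whose product acts on elastin and binds fibulin-5, was at 107.1 RPKM in LSL-K4M 4OHT and 64.5 RPKM in LSL-K4M mock, and at 132.1 RPKM in Mll3/4SET 4OHT and 52.0 RPKM in Mll3/4SET mock. Its ratio of 1.66 (1.60 to 1.72) in LSL-K4M stayed under the limit, and that of 2.54 (2.45 to 2.64) in Mll3/4SET passed it. Lox exceeded Loxl1 per length 7.39-fold in LSL-K4M 4OHT and 4.21-fold in LSL-K4M mock, but 3.52-fold in Mll3/4SET 4OHT and 5.26-fold in Mll3/4SET mock, so the ratio of Lox to Loxl1 was higher with 4OHT in LSL-K4M and lower with 4OHT in Mll3/4SET, a difference that was not tested.

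Set side by side, the 2 lines called partly different members. Fbln2 and Fbln5 were called higher in both lines, Eln, Fbn1, Fbn2 and Lox in LSL-K4M alone, Loxl1 in Mll3/4SET alone, and Fbln1, Efemp1 and Efemp2 in neither. Among the 11830 genes measured in both lines, 3.14% were called higher in both, 2.05% in LSL-K4M and under the limit in Mll3/4SET, and 1.82% in Mll3/4SET and under the limit in LSL-K4M. A call in 1 line alone does not show that the lines differ, and that difference was not tested. The ratio of 4OHT to mock was the larger one in LSL-K4M for 8 of the 10 genes and in Mll3/4SET for 2, Loxl1 and Efemp2. The share of all measured genes with the larger ratio in LSL-K4M was not computed, so this count has no background beside it. For Eln, Fbn2, Fbln2 and Lox the 4OHT level was also the higher one in LSL-K4M. For Fbn1, Fbln5, Fbln1 and Efemp1 both the mock and the 4OHT level were lower in LSL-K4M than in Mll3/4SET. For Eln, Fbn1, Fbn2 and Lox the ratio in LSL-K4M exceeded that in Mll3/4SET 3.79-fold, 1.59-fold, 2.88-fold and 1.71-fold. For Loxl1 it was 0.653 times that in Mll3/4SET, and the other 5 genes were less than 1.5-fold apart.

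**Figure D3:**
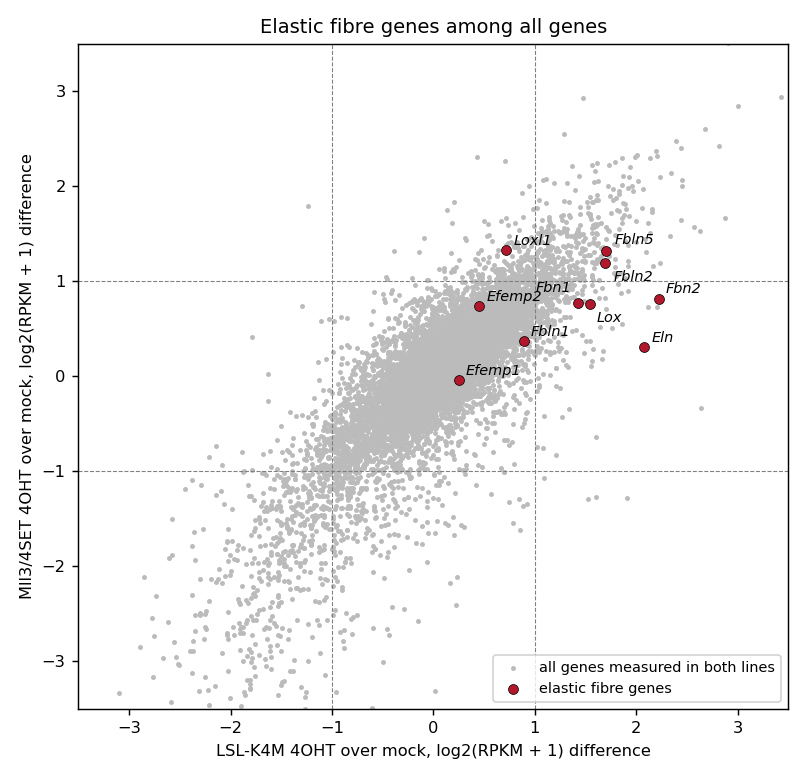
Log2(RPKM + 1) differences of 4OHT minus mock in LSL-K4M (horizontal) and Mll3/4SET (vertical) for 11830 genes measured in both lines (grey) and the 10 elastic fibre genes (red), with dashed lines at 2-fold; 89 genes fall outside the axes. Fbln2 and Fbln5 lie past both upper dashed lines, Eln lies at 2.08 and 0.31, and Loxl1 at 0.72 and 1.33.

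The mock cultures of the 2 lines give the one view of how far these genes vary without 4OHT, although line and library cannot be told apart and the 2 tables were deposited separately. In Mll3/4SET mock against LSL-K4M mock, 1 of the 10 genes was called higher and 0 lower, where 1.82% of 12027 measured genes were called higher and 3.18% lower. The gene was Fbn2, with a ratio of 2.22 (2.09 to 2.37). Fbn1 had a ratio of 1.65 (1.63 to 1.68), Fbln1 one of 1.65 (1.55 to 1.76), Efemp1 one of 1.57 (1.49 to 1.67) and Fbln5 one of 1.53 (1.45 to 1.63). Eln (0.920, 0.798 to 1.06), Fbln2 (0.987, 0.965 to 1.01), Lox (1.01, 0.987 to 1.03) and Efemp2 (1.01, 0.968 to 1.05) had intervals that include equality. Loxl1 was lower in Mll3/4SET mock, with a ratio of 0.806 (0.772 to 0.841). That mock library is the base of its 4OHT ratio in Mll3/4SET. The mock-to-mock ratio of Fbn1 is thus close to its 4OHT ratio in Mll3/4SET (1.70). Those of Fbln1, Efemp1 and Fbn2 are larger than their 4OHT ratios in that line (1.30, 0.971 and 1.82).

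The order of the levels within a library was similar in all 4. Lox was first and Eln last of the 10 genes in each library, with Fbn2 in ninth place. Fbln2, Fbn1 and Efemp2 filled places 2 to 4 in every library, and Loxl1 and Efemp1 places 5 and 6. Efemp1 and Fbln5 were nearly equal in LSL-K4M 4OHT, at 51.2 and 51.0 RPKM. Without replicates there is no spread by which neighbours in this order could be separated. The lysyl oxidases made up 41.7% of the summed RPKM of the 10 genes in LSL-K4M 4OHT and 39.4% in LSL-K4M mock, and 34.2% in Mll3/4SET 4OHT and 33.4% in Mll3/4SET mock. The short fibulins made up 13.5% in LSL-K4M 4OHT and 23.0% in LSL-K4M mock, and 20.5% in Mll3/4SET 4OHT and 23.6% in Mll3/4SET mock. The fibrillins, at 16.7% in LSL-K4M 4OHT and 14.9% in LSL-K4M mock, and 20.8% in Mll3/4SET 4OHT and 21.9% in Mll3/4SET mock, moved little as a share. Elastin was a small part of the RNA of its own fibre, with Eln at 7.51% of the Fbn1 level in LSL-K4M 4OHT and 4.16% in LSL-K4M mock, and 1.75% in Mll3/4SET 4OHT and 2.32% in Mll3/4SET mock.

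**Figure D4:**
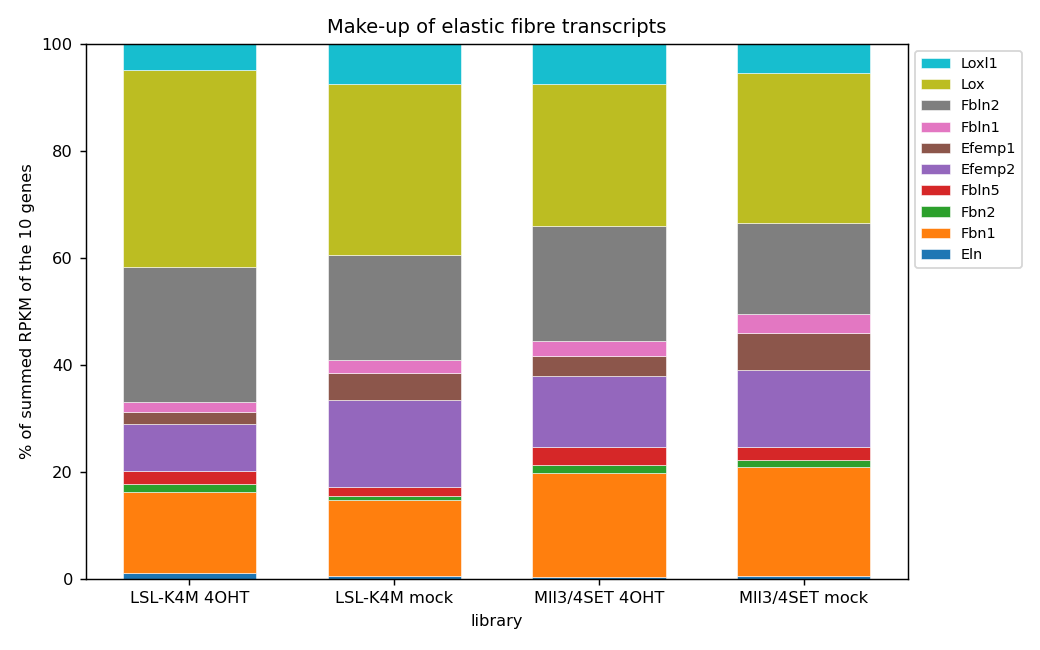
Share (%) of each gene in the summed RPKM of the 10 elastic fibre genes, 1 bar per library. Lox takes the largest part of each bar, 36.7% in LSL-K4M 4OHT and 31.9% in LSL-K4M mock, and 26.6% in Mll3/4SET 4OHT and 28.1% in Mll3/4SET mock.

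Promoters of 6 of the 10 genes were searched in RefSeq windows from 250 bases before to 50 after the gene start (assembly GRCm38.p6). No window of Eln or Loxl1 was available. The filter used left out the chromosome that holds Fbn2 and Lox, so neither of these genes is covered. Of the 6 genes searched, 4 are shown: Fbln2 and Fbln5, which were called higher in both lines, Fbn1, which was called higher in LSL-K4M, and Efemp1, which had the smallest differences. Capitals mark matches on either strand to 6 motifs. The GC box was searched for as GGGCGG, the TATA box as TATAAA, the AP-1 motif as TGANTCA, a SMAD-type motif as CAGACA, a TEAD-type motif as GGAATG, and the last motif was CCAAT. None of these motifs contains another. The Fbln2 window is chr6:91212514-91212813 on the plus strand, that of Fbln5, the farther upstream of 2 listed starts, is chr12:101819070-101819369 on the minus strand, that of Fbn1 is chr2:125506389-125506688 on the minus strand, and that of Efemp1 is chr11:28852955-28853254 on the plus strand.
Fbln2: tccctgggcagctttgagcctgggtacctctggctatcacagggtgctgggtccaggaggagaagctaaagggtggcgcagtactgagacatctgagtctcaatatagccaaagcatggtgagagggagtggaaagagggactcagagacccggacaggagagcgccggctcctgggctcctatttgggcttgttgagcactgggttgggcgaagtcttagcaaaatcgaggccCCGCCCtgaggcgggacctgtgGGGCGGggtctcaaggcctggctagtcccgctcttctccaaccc
Fbln5: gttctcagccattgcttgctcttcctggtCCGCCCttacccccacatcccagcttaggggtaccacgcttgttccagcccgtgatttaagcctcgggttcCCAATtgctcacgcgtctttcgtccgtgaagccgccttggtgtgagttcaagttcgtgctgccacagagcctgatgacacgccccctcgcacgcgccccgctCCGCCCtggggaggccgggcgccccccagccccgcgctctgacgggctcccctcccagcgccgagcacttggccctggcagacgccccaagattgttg
Fbn1: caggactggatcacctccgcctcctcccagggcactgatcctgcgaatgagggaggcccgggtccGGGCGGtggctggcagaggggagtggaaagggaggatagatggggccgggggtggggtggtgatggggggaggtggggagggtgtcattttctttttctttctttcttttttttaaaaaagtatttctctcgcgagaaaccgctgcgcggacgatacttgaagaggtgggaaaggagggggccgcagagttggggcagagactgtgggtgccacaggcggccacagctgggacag
Efemp1: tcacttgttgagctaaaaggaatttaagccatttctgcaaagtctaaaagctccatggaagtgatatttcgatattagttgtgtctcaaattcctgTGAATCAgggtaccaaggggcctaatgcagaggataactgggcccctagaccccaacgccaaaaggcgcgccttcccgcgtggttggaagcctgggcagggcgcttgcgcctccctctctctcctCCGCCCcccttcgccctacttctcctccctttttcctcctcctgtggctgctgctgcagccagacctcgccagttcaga
A GC box stood in at least 1 window of each of the 6 genes searched (8 of 10 windows, some of which overlap). Of all 32851 windows, a set from which no chromosome was left out, 35.7% hold one. The GC content of the 10 windows lay between 48.7% and 78.3%, beside a median of 52.7% over all windows. TGANTCA was found in the Efemp1 window and no other of the 10, beside 7.81% of all windows, and CCAAT in 1 Fbln5 window, beside 37.4%. CAGACA was found in 3 of the 10 windows, those of Fbln1 and the other Fbln5 start, beside 21.0%. TATAAA (13.6% of all windows) and GGAATG (14.7%) had no match in the 10 windows. A match describes the letters of a window and not a bound site.

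Gene patterns most like that of Eln were sought among 6614 other genes at 10 RPKM or more in the highest library, by the Euclidean distance over the 4 log2(RPKM + 1) values, each centred on its mean. The 5 nearest were Ada (distance 0.345), Crabp1 (0.473), Col12a1 (0.597), Dlk1 (0.629) and Serpina3h (0.631). Ada, the adenosine deaminase gene, was at 16.2 RPKM in LSL-K4M 4OHT and 4.39 RPKM in LSL-K4M mock, and at 3.69 RPKM in Mll3/4SET 4OHT and 2.90 RPKM in Mll3/4SET mock. Dlk1, which encodes a preadipocyte surface protein, was at 26.2 RPKM in LSL-K4M 4OHT and 10.3 RPKM in LSL-K4M mock, and at 11.0 RPKM in Mll3/4SET 4OHT and 7.79 RPKM in Mll3/4SET mock. The same search for Efemp1, the gene with the lowest difference, gave Ctbp2, Naa15, Irf2bp2, Eif4g2 and Hspa4, at distances of 0.030 to 0.046. With 4 libraries such likeness is a description.

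Genes listed as microfibril-associated and elastin-binding glycoproteins stayed mostly under the limit. Whether the product of each sits on microfibrils was not checked. For this list and those that follow, all measured genes give the comparison. In LSL-K4M 5.26% of them were called higher and 6.19% lower (median log2 difference 0.10). In Mll3/4SET 5.18% were called higher and 7.41% lower (median 0.12). Of 8 measured genes of the glycoprotein list, 0 were called higher and 0 lower in LSL-K4M (median log2 difference 0.36), and 0 higher and 2 lower in Mll3/4SET (median 0.16). The 2 were Mfap4, a microfibril-associated glycoprotein gene, at 1.37 RPKM in Mll3/4SET 4OHT and 4.99 RPKM in Mll3/4SET mock, and Emilin1, whose product lies between elastin and microfibrils, at 7.58 RPKM in Mll3/4SET 4OHT and 18.3 RPKM in Mll3/4SET mock. In LSL-K4M, Mfap4 was at 5.89 RPKM with 4OHT and 2.63 RPKM in mock, a log2 difference of 0.92, and Emilin1 at 20.3 RPKM with 4OHT and 21.9 RPKM in mock. Mfap2, a microfibril glycoprotein gene, was at 29.7 RPKM in LSL-K4M 4OHT and 15.0 RPKM in LSL-K4M mock, just under the limit with a log2 difference of 0.94, and at 32.2 RPKM in Mll3/4SET 4OHT and 25.7 RPKM in Mll3/4SET mock.

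Latent TGF-beta binding proteins and TGF-beta genes, which share the microfibrils, had 3 higher and 0 lower of 8 in each line (median log2 differences 0.87 in LSL-K4M and 0.95 in Mll3/4SET). Ltbp4, whose product works with fibulin-4 and fibulin-5 in elastin assembly, was at 7.32 RPKM in LSL-K4M 4OHT and 2.22 RPKM in LSL-K4M mock, and at 24.1 RPKM in Mll3/4SET 4OHT and 4.40 RPKM in Mll3/4SET mock, with a ratio of 3.30 in LSL-K4M, beside 5.47 in Mll3/4SET. Tgfb3 was at 19.3 RPKM in LSL-K4M 4OHT and 6.22 RPKM in LSL-K4M mock, and at 15.8 RPKM in Mll3/4SET 4OHT and 6.24 RPKM in Mll3/4SET mock. Ltbp2 was called higher in LSL-K4M, at 156.7 RPKM with 4OHT and 72.5 RPKM in mock, and had a log2 difference of 0.91 in Mll3/4SET. Further genes are named here after their values were seen. Tgfb1 was called higher in Mll3/4SET, with a log2 difference of 1.08, beside 0.66 in LSL-K4M. Ltbp3 had negative log2 differences under the limit, -0.67 in LSL-K4M and -0.63 in Mll3/4SET. That of Tgfb2 was 0.17 in LSL-K4M and -0.69 in Mll3/4SET.

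Of 12 measured genes for other lysyl oxidases and for the activation and copper supply of these enzymes, 2 were called higher and 0 lower in LSL-K4M (median 0.30), and 3 higher and 1 lower in Mll3/4SET (median 0.33). Postn, which encodes periostin, a scaffold for the protease that activates lysyl oxidase, was called higher in both lines, at 529.6 RPKM in LSL-K4M 4OHT and 232.8 RPKM in LSL-K4M mock, and at 686.4 RPKM in Mll3/4SET 4OHT and 339.7 RPKM in Mll3/4SET mock. Fn1, the fibronectin gene, was called higher in LSL-K4M with a log2 difference of 1.22, beside 0.88 in Mll3/4SET. Pcolce, which encodes an enhancer of the procollagen protease, was called lower in Mll3/4SET, at 49.9 RPKM with 4OHT and 189.4 RPKM in mock, and Pcolce2 was called higher there, at 4.00 RPKM with 4OHT and 0.818 RPKM in mock. Of the ADAMTS and ADAMTS-like genes, 6 were measured, with 1 higher and 0 lower in LSL-K4M (median 0.56) and 1 higher and 1 lower in Mll3/4SET (median 0.12). Adamtsl5 was the higher gene in both lines, at 23.8 RPKM in LSL-K4M 4OHT and 7.26 RPKM in LSL-K4M mock, and at 39.0 RPKM in Mll3/4SET 4OHT and 7.95 RPKM in Mll3/4SET mock. The lower gene in Mll3/4SET was Adamtsl3, at 0.583 RPKM with 4OHT and 2.44 RPKM in mock, while Adamtsl4 stayed just under the limit in both lines, at a log2 difference of 0.94 in LSL-K4M, beside 0.99 in Mll3/4SET.

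**Figure D5:**
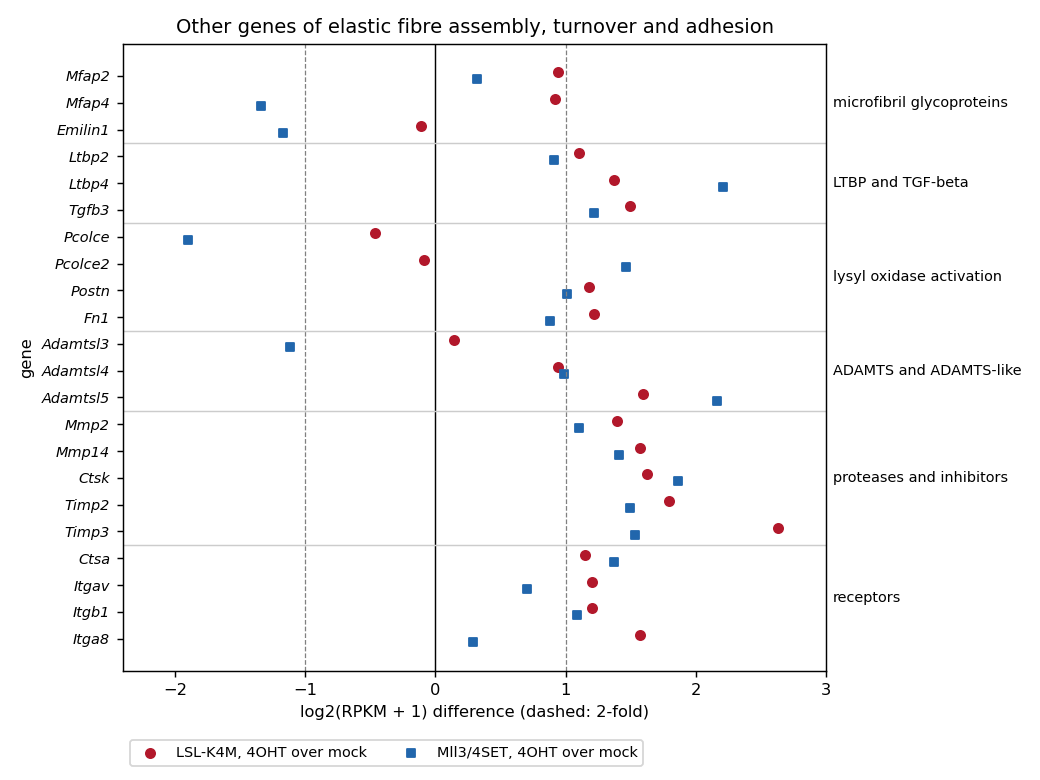
Log2(RPKM + 1) differences of 4OHT minus mock in LSL-K4M (circles) and Mll3/4SET (squares) for genes named from 6 lists of elastic fibre partners, with dashed lines at 2-fold. Timp3, at 2.63 in LSL-K4M, is the farthest right, and Pcolce, at -1.90 in Mll3/4SET, the farthest left.

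Of 10 measured genes for elastin-degrading proteases and for protease inhibitors, 5 were called higher and 1 lower in LSL-K4M (median 1.05) and 6 higher and 1 lower in Mll3/4SET (median 1.07). Mmp2, Mmp14 and Ctsk, which encode proteases, and Timp2 and Timp3, which encode inhibitors of matrix metalloproteinases, were called higher in both lines. Ctsk, the cathepsin K gene, was at 87.7 RPKM in LSL-K4M 4OHT and 27.9 RPKM in LSL-K4M mock, and at 131.7 RPKM in Mll3/4SET 4OHT and 35.5 RPKM in Mll3/4SET mock. Timp3 was at 313.8 RPKM in LSL-K4M 4OHT and 49.7 RPKM in LSL-K4M mock, and at 206.5 RPKM in Mll3/4SET 4OHT and 70.8 RPKM in Mll3/4SET mock. The genes called lower, named here after their values were seen, had few reads. Prtn3, which encodes the elastin-degrading proteinase 3, was at 0.358 RPKM in LSL-K4M 4OHT and 2.29 RPKM in LSL-K4M mock (8 and 48 reads). Slpi, which encodes an elastase inhibitor, had 1 read in Mll3/4SET 4OHT and 31 reads in Mll3/4SET mock, a ratio of 0.0331 (0.000813 to 0.199). Ctsb, the cathepsin B gene, and Cst3, which encodes the cathepsin inhibitor cystatin C, stayed under the limit with negative log2 differences. That of Ctsb was -0.69 for LSL-K4M, beside -0.50 for Mll3/4SET, and that of Cst3 was -0.24 for LSL-K4M, beside -0.70 for Mll3/4SET. Of 11 measured genes for cell surface receptors of elastin and microfibrils, 5 were called higher in LSL-K4M (median 0.70) and 2 in Mll3/4SET (median 0.71), and 0 were called lower. Ctsa, part of the elastin receptor complex and a lysosomal enzyme, and Itgb1, the beta chain of many matrix integrins, were called higher in both. Itga8, an integrin chain that binds nephronectin, was at 5.85 RPKM in LSL-K4M 4OHT and 1.31 RPKM in LSL-K4M mock, and at 1.71 RPKM in Mll3/4SET 4OHT and 1.21 RPKM in Mll3/4SET mock, a pattern that, like that of Eln, is high in 1 library.

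Markers of other cell states moved beside these genes. In bulk RNA, fewer cells of a type and less RNA per cell cannot be told apart. All 14 adipocyte markers were called lower in both lines, with a summed level of 2887.0 RPKM in LSL-K4M 4OHT and 12959.2 RPKM in LSL-K4M mock, and 130.5 RPKM in Mll3/4SET 4OHT and 10776.8 RPKM in Mll3/4SET mock. Pparg, the nuclear receptor at the centre of adipogenesis, was at 22.9 RPKM in LSL-K4M 4OHT and 133.8 RPKM in LSL-K4M mock, and at 3.23 RPKM in Mll3/4SET 4OHT and 100.3 RPKM in Mll3/4SET mock. The median log2 difference of the adipocyte markers was -2.00 in LSL-K4M and -5.37 in Mll3/4SET. Smooth muscle and myofibroblast markers were called higher in 11 of 11 measured genes in LSL-K4M and in 10 of 11 in Mll3/4SET. Des, a listed marker below the minimum, had fewer reads with 4OHT: 24 against 40 in LSL-K4M and 9 against 32 in Mll3/4SET. The summed level of the list was 2831.7 RPKM in LSL-K4M 4OHT and 645.0 RPKM in LSL-K4M mock, and 1657.7 RPKM in Mll3/4SET 4OHT and 451.1 RPKM in Mll3/4SET mock. Acta2, smooth muscle actin, had a ratio of 5.44 in LSL-K4M, beside 5.33 in Mll3/4SET. Fibroblast and progenitor markers, 13 measured, had 3 higher and 0 lower in LSL-K4M (median 0.46) and 0 higher and 2 lower in Mll3/4SET (median -0.28). Their summed level was 3424.5 RPKM in LSL-K4M 4OHT and 2639.2 RPKM in LSL-K4M mock, and 4356.7 RPKM in Mll3/4SET 4OHT and 4081.3 RPKM in Mll3/4SET mock. A sum without Col3a1, the collagen III gene, was added after the values were seen. The other 12 summed to 2693.1 RPKM in LSL-K4M 4OHT and 2157.2 RPKM in LSL-K4M mock. In Mll3/4SET they summed to 2062.7 RPKM with 4OHT and 2445.5 RPKM in mock, so the direction there depends on Col3a1. The endothelial markers Cdh5, Tie1 and Emcn and the leukocyte marker Tyrobp had 0 reads in all 4 libraries, and the summed levels of these lists were between 11.4 and 31.0 RPKM and between 4.11 and 9.46 RPKM. Of 3 measured endothelial markers, 1 was called higher and 0 lower in each line (medians 0.55 in LSL-K4M, 0.67 in Mll3/4SET), and of 4 measured leukocyte markers, 0 were called higher and 1 lower in each line (medians 0.10 in LSL-K4M, -0.33 in Mll3/4SET). The genes called, again named after their values were seen, were Eng and Mpeg1. Eng, which encodes the TGF-beta co-receptor endoglin, was at 17.4 RPKM in LSL-K4M 4OHT and 7.61 RPKM in LSL-K4M mock, and at 22.6 RPKM in Mll3/4SET 4OHT and 8.41 RPKM in Mll3/4SET mock. Mpeg1, a macrophage-expressed gene, was at 0.902 RPKM in LSL-K4M 4OHT and 4.60 RPKM in LSL-K4M mock, and at 0.245 RPKM in Mll3/4SET 4OHT and 3.32 RPKM in Mll3/4SET mock. The part of cell makeup in the differences of the elastic fibre genes was not tested.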

How the data were processed

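RNA of 4 libraries was used, and 6 libraries of ChIP-seq or input DNA were not analysed here. RNA was extracted with Trizol and mRNA was captured on beads, per the labels' protocols. The submitters' processing notes name the build mm9 and the tool SICER; the aligner, the counter and the use of strand are not given in the sources used here. Per the file headers, each line has a deposited table of read counts and RPKM per RefSeq transcript for its 4OHT and mock library. The deposited counts are whole numbers, and the deposited RPKM are proportional to them. The authors' ratio of mock to 4OHT and the authors' column of another kind, headed as expressed, were not used, and 0 per-sample columns of other series were found.

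The tables list 29082 transcripts. For each of 22835 names the transcript with the highest mean RPKM was kept, since transcripts of a gene share reads (Fbln2 and Efemp2 have 2 each). For each pair of libraries log2((RPKM + 1)/(RPKM + 1)) was computed wherever the higher value reached 1 RPKM, and called at 2-fold. Counts would take a quasi-likelihood test, but 1 library per group leaves no residual degrees of freedom for 4OHT within a line. A fit that takes the 2 lines as replicates of a common 4OHT effect was not run, because 4OHT alters different genes in each line. Ratios of RPKM carry exact conditional binomial 95% intervals of the reads (SciPy 1.17.1, pandas 2.3.3, Python 3.11.15). Whether GRCm38.p6 lists a gene that overlaps a member was looked up by name alone; the long noncoding genes Gm30003 (with Eln) and Gm41741 (with Fbn2) do, and an unstranded count would not separate their reads.

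The 10 genes and the lists of partner genes and markers were chosen with earlier results of these data known. Genes named from a partner list are up to 3 with the largest difference in either line and any called in both lines. Alternatives were pseudocounts of 0.1 and 0.001, no minimum or 5 RPKM, median-ratio and upper-quartile scaling, and the mean over all transcripts of a name.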

Additional observations from a re-analysis of the deposited data

Results flagged for a closer look

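Of the 10 elastic fibre genes, Efemp1 was the gene with opposite signs in the 2 lines: its log2 differences of 4OHT over mock were 0.25 (LSL-K4M) and -0.04 (Mll3/4SET). Each line has 1 pair of libraries, neither value reached 2-fold, and the counting interval of the ratio in Mll3/4SET includes equality, so the difference between the lines was not tested.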

How the results depend on the processing

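The same members were called under every alternative: Eln, Fbn1, Fbn2, Fbln5, Fbln2 and Lox in LSL-K4M, Fbln5, Fbln2 and Loxl1 in Mll3/4SET, and Fbn2 between the mock libraries, and 0 members were called lower. The median of the 10 genes was 1.34 in LSL-K4M and 0.63 in Mll3/4SET under median-ratio scaling, and 1.38 and 0.71 under upper-quartile scaling. Counts over all genes grew with smaller pseudocounts, which keep weakly expressed genes apart. With 0.1 RPKM, 1018 genes were called higher in LSL-K4M, 1013 in Mll3/4SET and 371 in the mock comparison, with 615 lower there. With 0.001 RPKM these counts were 1075, 1083, 403 and 650. Of 210 recomputed values of single members, 172 moved by no more than the distance from the centre to the end of the log2 counting interval. Many of these 172 could not have moved, so the count is no measure of stability. A change of the minimum leaves the value of a member as it is (30 values for no minimum and 30 for 5 RPKM). The mean over transcripts can move only Fbln2 and Efemp2, the members with several transcripts. That interval belongs to the plain ratio of RPKM. The other 38 values moved by more, and no called value changed its sign. Median-ratio scaling moved the values of single members by -0.14 to 0.00. No paired analysis was possible because each group has 1 library. The least covered member, Eln, had 388 reads or more, so counting error, with reads taken as independent, is small beside the folds called. The spread between cultures is unknown.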

Other observations

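The protein-coding genes that flank the 10 members on either side (20 genes, by the RefSeq list of GRCm38.p6) stayed under the 2-fold limit with 1 exception. In LSL-K4M, 13 of them were measured, with 0 called higher and 0 lower and a median log2 difference of 0.25, beside 0.10 over all measured genes. In Mll3/4SET, 12 were measured, with 1 higher and 0 lower and a median of 0.35, beside 0.12. That gene was Slc27a6, a fatty acid transport gene beside Fbn2, with a log2 difference of 1.48 in Mll3/4SET and 0.53 in LSL-K4M. Limk1, beside Eln, was at 8.71 RPKM in LSL-K4M 4OHT and 7.21 RPKM in LSL-K4M mock, where Eln itself differed 4.89-fold. Srfbp1, beside Lox, was at 8.41 RPKM in LSL-K4M 4OHT and 5.45 RPKM in LSL-K4M mock.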
